A study of Homo sapiens with 3 samples.

Results

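The genes described here are ATF4 and 9 genes of the amino acid and stress response that it drives, namely ASNS, CHAC1, TRIB3, DDIT3, SESN2, PSAT1, PHGDH, SLC7A5 and SLC3A2. They were taken by symbol from a table of read counts, and all 10 were found once each among its 58381 genes. The RNA came from the human bladder carcinoma line T24, sequenced in 3 conditions with 1 library each. In the Ctrl library the cells were not irradiated, in the RT library they had been irradiated, and in the RT + shHDAC6 library they had been irradiated and carried an shRNA against HDAC6, a cytoplasmic deacetylase. The labels give 10 Gy from a caesium source as the irradiation and name pLKO.1 as the control vector, and they describe lentiviral infection followed by puromycin selection in the same words for all libraries. The treatment label of Ctrl reads Empty and that of RT names no vector, whereas the paper, in its results, calls the irradiated comparator parental. An unirradiated library with the shRNA was not analysed here, and no time between irradiation and harvest is given for the RNA. The comparison of RT with Ctrl asks how these genes stood after irradiation, and that of RT + shHDAC6 with RT asks how they stood when HDAC6 was targeted as well.

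ATF4 is a bZIP transcription factor of the integrated stress response. Kinases that sense amino acid shortage, endoplasmic reticulum stress, double-stranded RNA or haem shortage phosphorylate eIF2α, which lowers general translation while favouring translation of the ATF4 message through its upstream open reading frames. ATF4 protein then binds DNA with C/EBP family partners and turns on genes that make, import and load amino acids and genes of the terminal stress response. Because much of this control is translational, the ATF4 read count reports its mRNA and not its protein.

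A DNA element known to bind such ATF4 dimers, the C/EBP-ATF response element TGATGNAAN, was searched on both strands in the 250 bases upstream of each start in RefSeq promoter windows, which were at hand for all 10 genes. It was found for 2 of them, ASNS and CHAC1, or 20.0%, against 3.87% of 27305 genes with a window. The share varied among the 9 lists of related genes described below. It was 60.0% of 5 bZIP and other stress factors with a window and 20.0% of 5 serine, glycine and one-carbon enzymes. It was 0.0% of 8 sestrins and amino acid sensors. The remaining lists lay between 8.33% (12 genes of the ATF6 and XBP1 arm) and 18.8% (16 aminoacyl-tRNA synthetases). ASNS and CHAC1 are also the members whose read counts were lowest in RT relative to Ctrl. Whether these low counts are linked to the element was not tested, and genes of the lists that hold it were not compared in this way. The sites are printed here 5′ to 3′ along the gene, with the element in capitals.
ASNS site: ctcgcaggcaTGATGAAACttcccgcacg
CHAC1 site: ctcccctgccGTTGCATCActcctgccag
The ASNS site lies at chr7:97872458-97872486 on the minus strand of GRCh38.p14, with the first base of the element 68 bases before the start. The CHAC1 site lies at chr15:40953251-40953279 on the plus strand, with the element beginning 210 bases before the start and reading TGATGCAAC on the opposite strand. Transcripts of GENCODE release 44 cover the whole 250 bases upstream of this CHAC1 start, and those of ASNS cover the 134 bases next to its start, so that both sites are also within annotated exons. A match describes letters only, and the absence of one in the other 8 genes says nothing about binding there.

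Each condition had a single library, so no difference could be set against replicates and p-values are not given. Library totals were 41811165 counts for Ctrl, 35959265 for RT and 35424086 for RT + shHDAC6, and mitochondrially encoded RNA took 3.75% to 6.09% of them. Levels are CPM (counts relative to the library total) after TMM scaling, and log2 ratios are given with 95% Clopper-Pearson intervals, which cover counting error only, as reads were counted with no molecular identifier to mark separate molecules. Scaling by library totals alone would move every log2 ratio of RT to Ctrl by -0.22 and every log2 ratio of RT + shHDAC6 to RT by 0.084. The shRNA's own target, HDAC6, had 3098 counts in Ctrl, 2383 in RT and 2170 with the shRNA, where its level stood at 87.2% of RT (log2 ratio -0.20, interval -0.28 to -0.11). KRT18 and VIM, both abundant in this line, were high in all libraries (7336 to 9048 and 74147 to 121716 counts), and the urothelial differentiation marker UPK2 had 1 to 3. Of 8 tested epithelial and urothelial markers, 5 had log2 ratios of RT + shHDAC6 to RT above 0, and 2 were called 2-fold lower, KRT7 (3854 and 597 counts) and GATA3 (-1.07), as was the mesenchymal marker CDH2 (-1.04).

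In irradiated cells the 10 genes did not move as a block. The pair that forms the LAT1 amino acid transporter, SLC7A5 and SLC3A2, was more than 2-fold higher in RT than in Ctrl (SLC7A5 just under 2-fold with library totals alone), whereas CHAC1 and ASNS were more than 2-fold lower and ATF4 itself was 1.60-fold lower. TRIB3, DDIT3 and SESN2, which are read as markers of this response, had intervals that included no change with TMM scaling, but those of TRIB3 and DDIT3 lie below 0 with library totals alone (log2 ratios -0.35 and -0.41). In RT + shHDAC6 compared to RT, no member differed by 1.5-fold in either direction with TMM scaling, but CHAC1 did with library totals alone (0.62). ATF4 and CHAC1 stood higher there than in RT, and PHGDH stood lower.

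**Figure D1:**
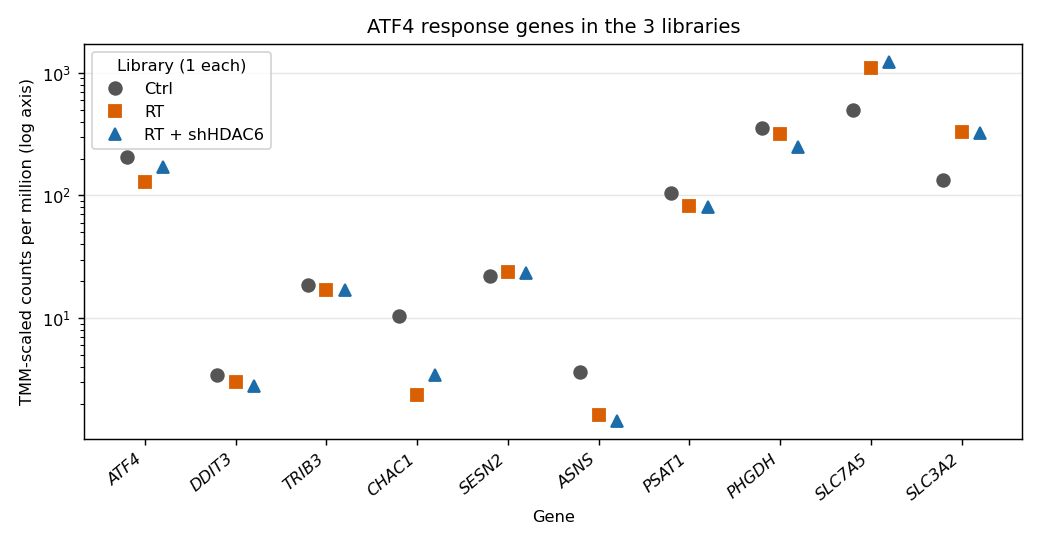
Level of each of the 10 genes in Ctrl (circle), RT (square) and RT + shHDAC6 (triangle), in TMM-scaled CPM on a log axis, with 1 library per condition and no error bar. SLC7A5 and SLC3A2 lie higher in both irradiated libraries than in Ctrl, CHAC1, ASNS and ATF4 lie lower, and the points of TRIB3, DDIT3 and SESN2 nearly coincide.

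ATF4 (ENSG00000128272, chr22:39519695-39522683, plus strand; all positions are whole genes on GRCh38) had 9375 counts in Ctrl, 4325 in RT and 5963 with RT + shHDAC6. These are 207, 129 and 170 scaled CPM. The RT library was thus the lowest and Ctrl the highest. The log2 ratio of RT to Ctrl was -0.68 (interval -0.73 to -0.63), below that of all but 17.0% of the 20267 genes tested, and -0.90 when only library totals were used. From RT to RT + shHDAC6 the log2 ratio was 0.40 (0.34 to 0.46), a level 1.32-fold that of RT, and 84.9% of 19013 tested genes had a lower ratio. Relative to Ctrl, RT + shHDAC6 remained at -0.28 (-0.33 to -0.23). ATF4 has processed copies in the genome, of which ATF4P4 carried the most counts (106, 35 and 52), and how reads matching several genes were assigned is not given in the sources used here.

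CHAC1, which degrades glutathione and is among the most stress-responsive ATF4 targets, showed the largest difference of the 10 genes. CHAC1 (ENSG00000128965, chr15:40952962-40956512, plus strand) had 472 counts in Ctrl, 79 in RT and 120 with RT + shHDAC6, or 10.4, 2.36 and 3.43 scaled CPM. Its level in RT was 4.42-fold lower than in Ctrl (log2 ratio -2.14, -2.51 to -1.80), and 1.48% of tested genes had a lower ratio. In RT + shHDAC6 its log2 ratio to RT was 0.54 (0.12 to 0.97), the highest of the members, with 89.0% of tested genes below it. That library was still far under Ctrl, at -1.60 (-1.90 to -1.31). Set against ATF4 within the same library, which needs no scaling, CHAC1 had 0.0503 counts per ATF4 count in Ctrl, 0.0183 in RT and 0.0201 with RT + shHDAC6. The ratio was lower in RT than in Ctrl by more than counting error (log2 -1.46, -1.83 to -1.11), so that CHAC1 differed by more than ATF4 did, whereas the difference between RT and RT + shHDAC6 was within it (0.14, -0.29 to 0.57).

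The other 3 members of the stress arm differed little. TRIB3, a pseudokinase that feeds back on ATF4 and AKT signalling (ENSG00000101255, chr20:362835-397559, plus strand), had 840, 565 and 596 counts (given here and later in the order Ctrl, RT, RT + shHDAC6). Its log2 ratio was -0.14 (-0.29 to 0.019) for RT to Ctrl and 0.015 (-0.15 to 0.18) for RT + shHDAC6 to RT. DDIT3, which encodes the bZIP factor CHOP (ENSG00000175197, chr12:57516588-57521737, minus strand), had 155, 100 and 97 counts. Both of its intervals, -0.57 to 0.17 and -0.52 to 0.31, included 0 and were among the widest of the members. SESN2, a leucine sensor that restrains mTORC1 (ENSG00000130766, chr1:28259518-28282491, plus strand), had 1000, 789 and 813 counts, with a log2 ratio of RT to Ctrl of 0.093 (-0.043 to 0.23) that turned to -0.12 with library totals alone. Of the exon length of DDIT3, 31.6% overlaps exons of genes on the other strand. One of these, MARS1, had 11567, 8145 and 8934 counts, and without the strand setting of the counting DDIT3 reads cannot be told apart from reads of that strand. Per ATF4 count, each of the 3 genes stood higher in RT than in Ctrl, by log2 values of 0.54 (0.38 to 0.71) for TRIB3, 0.48 (0.10 to 0.86) for DDIT3 and 0.77 (0.63 to 0.92) for SESN2. These ratios were lower again in RT + shHDAC6 than in RT, with intervals below 0 for all 3.

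Of the enzymes that make amino acids, asparagine synthetase differed most. ASNS (ENSG00000070669, chr7:97851677-97872542, minus strand) had 163 counts in Ctrl, 54 in RT and 51 with RT + shHDAC6, or 3.59, 1.61 and 1.46 scaled CPM. Both irradiated libraries lay below Ctrl and near each other. The log2 ratio of RT to Ctrl was -1.16 (-1.63 to -0.71), a 2.23-fold lower level, and that of RT + shHDAC6 to RT was -0.14 (-0.73 to 0.43). The gene is weakly counted, and 49.3% of its exon length is shared on the same strand with an overlapping gene model, ENSG00000284707, which had 8, 2 and 4 counts, so reads that fit both may be missing from either.

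PHGDH and PSAT1 encode the first and the following enzyme of serine synthesis from a glycolytic intermediate. PHGDH (ENSG00000092621, chr1:119648411-119744218, plus strand) had 15960 counts in Ctrl, 10724 in RT and 8688 with the shRNA, or 352, 320 and 248 scaled CPM. Its level was lowest in RT + shHDAC6, at 77.6% of RT (log2 ratio -0.37, -0.41 to -0.32), while RT and Ctrl differed by -0.14 (-0.17 to -0.10). PSAT1 (ENSG00000135069, chr9:78297125-78330093, plus strand) had 4726, 2773 and 2815 counts, or 104, 82.7 and 80.4 scaled CPM. Here the step lay between Ctrl and RT (-0.33, -0.40 to -0.27), and RT + shHDAC6 was close to RT (-0.040, -0.12 to 0.036, with the sign turned to 0.043 by library totals). With library totals alone the PHGDH ratios were -0.36 for RT to Ctrl and -0.28 for RT + shHDAC6 to RT, so which of its steps was the larger depends on the scaling. A ratio of both genes needs none. PHGDH counts per PSAT1 count were 3.38 in Ctrl, 3.87 in RT and 3.09 with RT + shHDAC6, a log2 difference between the last 2 of -0.33 (-0.41 to -0.24).

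SLC7A5 is the transport subunit and SLC3A2, also called CD98, the heavy chain that carries it to the plasma membrane, and together they exchange glutamine for leucine and other large neutral amino acids. SLC7A5 (ENSG00000103257, chr16:87830023-87869507, minus strand) had 22532 counts in Ctrl, 37031 in RT and 42987 with RT + shHDAC6, or 497, 1104 and 1228 scaled CPM. SLC3A2 (ENSG00000168003, chr11:62856004-62888880, plus strand) had 6093, 10973 and 11372 counts, or 134, 327 and 325 scaled CPM. Both stood clearly apart from Ctrl in both irradiated libraries. In RT, SLC7A5 was 2.22-fold higher than in Ctrl (log2 ratio 1.15, 1.13 to 1.18) and SLC3A2 2.43-fold higher (1.28, 1.24 to 1.33), and 96.8% and 97.7% of tested genes had a lower ratio. With library totals alone SLC7A5 came to 0.93, under 2-fold, and SLC3A2 to 1.07. In RT + shHDAC6, SLC7A5 was 0.15 above RT on the log2 scale (0.13 to 0.17), whereas SLC3A2 was at -0.011 (-0.049 to 0.027) and became positive with library totals or upper quartile factors. The count ratio of the subunits kept within a narrow range, with 3.70, 3.37 and 3.78 SLC7A5 counts per SLC3A2 count in Ctrl, RT and RT + shHDAC6. Between SLC7A5 and PHGDH the balance changed far more, from 1.41 counts per PHGDH count in Ctrl to 3.45 in RT and 4.95 in RT + shHDAC6.

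**Figure D2:**
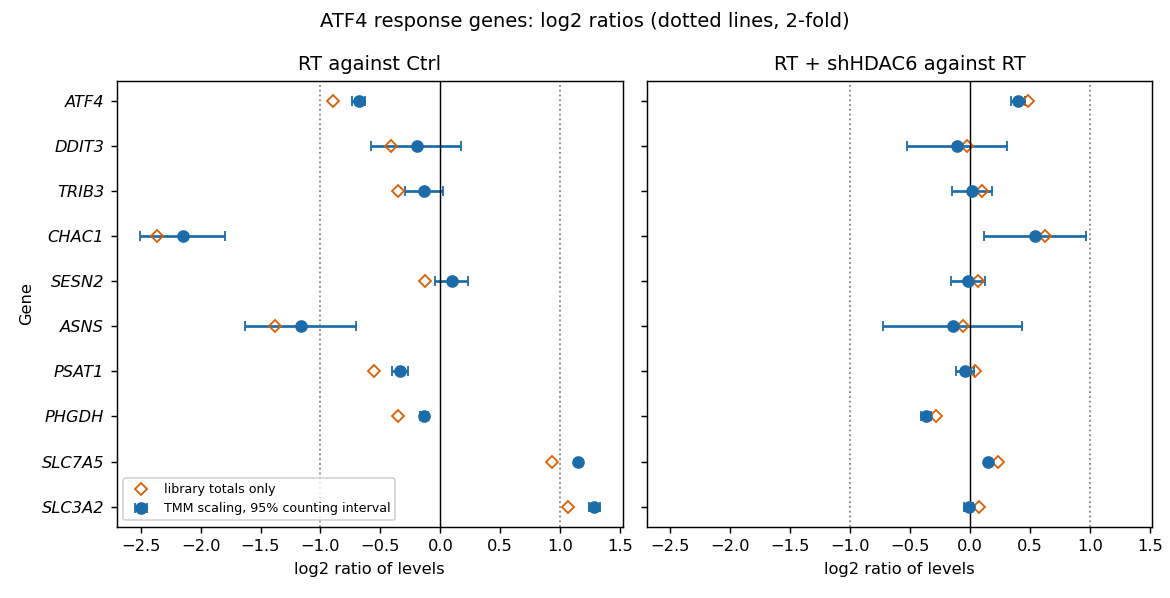
Log2 ratio of each of the 10 genes in RT against Ctrl (left) and RT + shHDAC6 against RT (right), with TMM scaling and 95% counting intervals (filled circles, bars) and with library totals only (open diamonds); dotted lines mark 2-fold. Only SLC7A5, SLC3A2, CHAC1 and ASNS pass a 2-fold line, on the left, where the diamond of SLC7A5 falls just inside it.

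Counted over the 10 genes, 2 were at least 2-fold higher in RT than in Ctrl and 2 at least 2-fold lower, among genes with at least 10 counts in either library. Of all tested genes, 4.81% were higher and 9.17% lower by this rule (975 and 1858 genes, or 523 and 2845 with library totals alone). At 1.5-fold the members counted 2 higher and 3 lower, ATF4 being added, where 14.5% and 20.5% of tested genes were called. Among the 12670 genes with at least 100 counts in either library, 4.24% were higher and 2.19% lower. ASNS and CHAC1 reached 100 counts in Ctrl but not in RT, so that their place among the genes lower under that filter is a description only. The median log2 ratio of the members was -0.17, against -0.062 for all tested genes.

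In RT + shHDAC6 compared to RT, 0 of the 10 members were called at 2-fold, where 4.35% of tested genes were higher and 4.78% lower, or 0.995% and 2.15% among genes with at least 100 counts. With TMM scaling none was called at 1.5-fold either, where 10.1% of all tested genes were higher and 9.93% lower. CHAC1 passes 1.5-fold with library totals alone, at a log2 ratio of 0.62. The median of the members was -0.015, against -0.0032 for all tested genes. Counting error alone was smaller than the difference for 4 members, since the intervals of ATF4, CHAC1 and SLC7A5 lay above 0 and that of PHGDH below, and those of the other 6 included 0. Between RT + shHDAC6 and Ctrl the called genes were the 4 already called in RT, 2 higher and 2 lower, where 4.91% and 10.5% of tested genes were called, or 3.56% and 4.42% among genes with at least 100 counts. That comparison shares a library with each of the others, and so it is no independent repeat of either. The comparisons of RT with Ctrl and of RT + shHDAC6 with RT share the RT library and are not independent either. A deviation of the RT library alone would enter these with opposite signs, and its part in any result was not tested.

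The study called genes by a NOISeq probability over 0.4, a rule that sets each gene against simulated technical noise and is far more permissive. That procedure was re-implemented here, and the numbers of genes it called differ from those in the paper. By it, SLC7A5 and SLC3A2 were higher and 5 members lower in RT than in Ctrl. In this comparison it called 20.2% of all genes with a count higher and 22.2% lower. In RT + shHDAC6 compared to RT it called 3 members higher (ATF4, CHAC1 and SLC7A5) and 1 lower (PHGDH), where 12.9% and 15.2% of genes were called. Against Ctrl, RT + shHDAC6 had 2 members higher and 5 lower by this rule, with 19.9% and 21.6% of genes called.

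**Figure D3:**
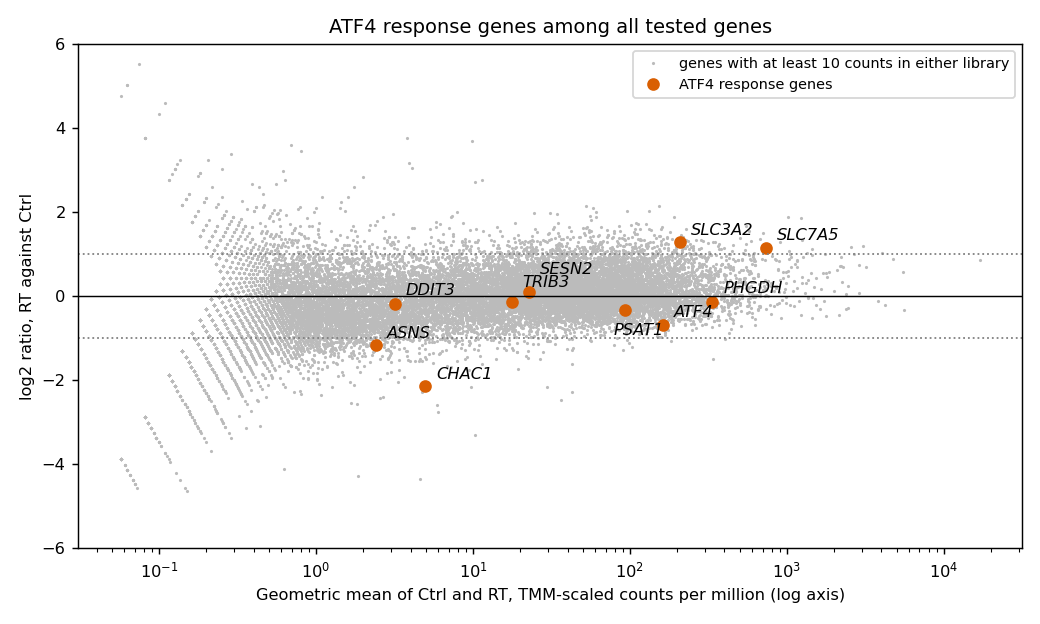
Log2 ratio of RT to Ctrl against the geometric mean of both TMM-scaled levels in CPM (log axis) for genes with at least 10 counts in either library (grey) and the 10 genes (orange, named); dotted lines mark 2-fold. SLC7A5 and SLC3A2 lie at the upper edge of the cloud at high levels, CHAC1 lies below it and ATF4 within its lower part.

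Levels were also ordered per kb of annotated exon, so that genes could be compared with one another. SLC7A5 was the highest in all 3 libraries, with 104, 232 and 258 scaled CPM per kb in Ctrl, RT and RT + shHDAC6, and ASNS the lowest, with 0.734, 0.329 and 0.297. ATF4 came second in Ctrl at 79.1 (77.5 to 80.7), and in RT it shared that place with SLC3A2, their intervals of 47.9 to 50.8 and 50.2 to 52.1 overlapping. CHAC1 and DDIT3 exchanged places, CHAC1 standing above DDIT3 in Ctrl (5.08 against 2.62) and below it in RT (1.15 against 2.28). In Ctrl the neighbours SESN2 and TRIB3, and TRIB3 and CHAC1, overlapped within counting error. The exon length joins all annotated transcripts of a gene and is long for PHGDH (9187 bases), which lowers its value per kb. That of ASNS may be too low as well, since reads in the 49.3% of exon length shared with another gene model may be missing.

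Other genes of the pathway were taken from 9 lists with 103 genes. Library totals alone would move each list's median by the shift given above, so that the RT medians of 0.19, 0.057, 0.025 and 0.0092 given for 4 of the lists would be negative. Upstream of ATF4, none of the 9 genes for eIF2α kinases, their phosphatase subunits and the mitochondrial relay was called at 2-fold in either main comparison. In RT the list had a median of 0.30 against Ctrl, between the haem-regulated kinase EIF2AK1 at -0.37 and the endoplasmic reticulum kinase EIF2AK3 (PERK) at 0.73. In RT + shHDAC6 the highest ratio to RT was that of PPP1R15A (GADD34), the phosphatase subunit that ends the response, at 0.45, and the lowest that of EIF2AK3 at -0.22. Among the kinase genes only EIF2AK3 was above 0 in RT against Ctrl, with EIF2AK4 at -0.16 and EIF2AK2 at -0.027 (-0.076 to 0.023). Thus the genes for the sensors did not all stand on the same side as ATF4.

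The bZIP partners and other stress transcription factors lay mostly on the side of ATF4. In RT, 5 of 7 were below 0 (6 with library totals alone) with a median of -0.47, and 0 were called. ATF3, an early stress factor, was the lowest, with 399 counts in Ctrl, 154 in RT and 287 with RT + shHDAC6. Its log2 ratio was -0.94 (-1.22 to -0.67) in RT against Ctrl and 0.84 (0.55 to 1.13) in RT + shHDAC6 against RT, where 6 of the 7 genes were above 0 and the median was 0.13. ATF5, which like ATF4 is controlled through upstream reading frames, went the other way in RT with 857, 1054 and 1333 counts and a ratio of 0.73 (0.60 to 0.87), though 19.5% of its exon length overlaps genes on the other strand.

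The other amino acid transporters resembled SLC7A5 and SLC3A2. Of 12, 11 had enough counts to be tested, and in RT 9 of these were above 0, with a median of 0.68 against the -0.062 of all genes. At 1.5-fold 7 were higher, where 14.5% of all tested genes were. With library totals alone fewer of them reach 1.5-fold, and the median is 0.47. The glutamine carrier SLC1A5 (6950, 11696 and 12524 counts) and the y+L carrier SLC7A6 (5931, 9844 and 9630) were called higher in RT, at 1.19 (1.14 to 1.23) and 1.17 (1.12 to 1.21). With library totals alone both came under 2-fold, at 0.97 and 0.95, and 23.8% and 55.6% of their exon lengths overlap genes on the other strand. The cystine carrier SLC7A11, a well-known ATF4 target, was at -0.034 (-0.080 to 0.012) in RT and at -0.65 (-0.71 to -0.60) in RT + shHDAC6 against RT, the lowest of the list there. SLC7A8, a further partner of SLC3A2, was the highest there at 0.81 (0.47 to 1.16) after being the lowest in RT at -0.48. The median of the list in RT + shHDAC6 against RT was -0.094, with 3 genes above 0 and 8 below (5 and 6 with library totals alone).

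Among enzymes, ALDH1L2, a mitochondrial enzyme of folate metabolism, was lower at each step. It had 617 counts in Ctrl, 216 in RT and 86 with RT + shHDAC6, with a ratio of RT to Ctrl of -1.08 (-1.31 to -0.85) and of RT + shHDAC6 to RT of -1.39 (-1.77 to -1.02). The other 7 genes of serine, glycine and one-carbon metabolism were not called, and the list had medians of 0.025 and 0.054. Of 10 further amino acid enzymes, 0 were called in RT, where ASS1 was the highest at 0.81 and GLUL, which makes glutamine, the lowest at -0.66. In RT + shHDAC6 against RT, GLUL was the highest of this list at 0.38. None of the 20 cytosolic aminoacyl-tRNA synthetases was called in either comparison, with medians of 0.0092 in RT, between GARS1 at -0.62 and FARSA at 0.64, and 0.018 in RT + shHDAC6 against RT, between VARS1 at -0.28 and FARSB at 0.39.

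Stress effectors and feedback genes resembled CHAC1 in part. In RT, 4 of 13 tested genes were called lower and 0 higher, where 9.17% and 4.81% of all tested genes were, and the median was 0.057. DDIT4 (REDD1), an inhibitor of mTORC1, had 3907 counts in Ctrl, 517 in RT and 892 with RT + shHDAC6, a level in RT 5.59-fold lower than in Ctrl (-2.48, -2.62 to -2.35). BBC3, a pro-apoptotic BH3-only gene also known as PUMA, was at -1.56 (-2.00 to -1.14) with 235, 59 and 100 counts. GDF15, a secreted stress cytokine, was at -1.50 (-1.74 to -1.26) with 679, 178 and 234 counts. These 3 genes shared the order of CHAC1 and ATF4, with Ctrl the highest, RT the lowest and RT + shHDAC6 between. The fourth, ADM2, had 46, 6 and 12 counts and was tested in RT only through its count in Ctrl. The highest in RT was the death receptor gene TNFRSF10B at 0.68. In RT + shHDAC6 against RT all 13 had ratios above 0, from 0.014 for TNFRSF10B to 0.94 for ADM2 (interval -0.59 to 2.64), with a median of 0.27, and 0 were called. Of those with at least 100 counts DDIT4 was the highest, at 0.72 (0.57 to 0.88). ADM2 was tested in this comparison only through its count in RT + shHDAC6, so its side of 0 followed from the count filter.

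The remaining lists held genes of neighbouring pathways. Of 11 sestrins and amino acid sensors of mTORC1, SESN3 was called lower in RT (134 and 49 counts, -1.02, -1.52 to -0.53) and NPRL2 was the highest at 0.51, with a median of -0.29. In RT + shHDAC6 against RT the median was -0.10, and SESN3 was the highest with 79 counts (0.63, 0.095 to 1.17). CASTOR2 was at -0.48 and FLCN at 0.053 as the lowest and highest with at least 100 counts. The single call, named after its value was seen, was CASTOR1 with 23 and 9 counts. It was tested only through its count in RT, so its side of 0 followed from the count filter. Of its exon length, 46.0% is shared on the same strand with another gene model. The ATF6 and XBP1 arm of the unfolded protein response, a branch other than that of ATF4, had 0 of 12 genes called. The list had a median of 0.19 in RT, between HERPUD1 at -0.33 and HYOU1 at 0.77. In RT + shHDAC6 against RT 11 of the 12 were below 0 (9 with library totals alone), from DNAJB9 at -0.60 (-0.79 to -0.41) to DNAJC3 at 0.047, and the median was -0.27. This was the opposite side of 0 from the stress effectors in the same comparison, although the difference between the lists was not tested.

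**Figure D4:**
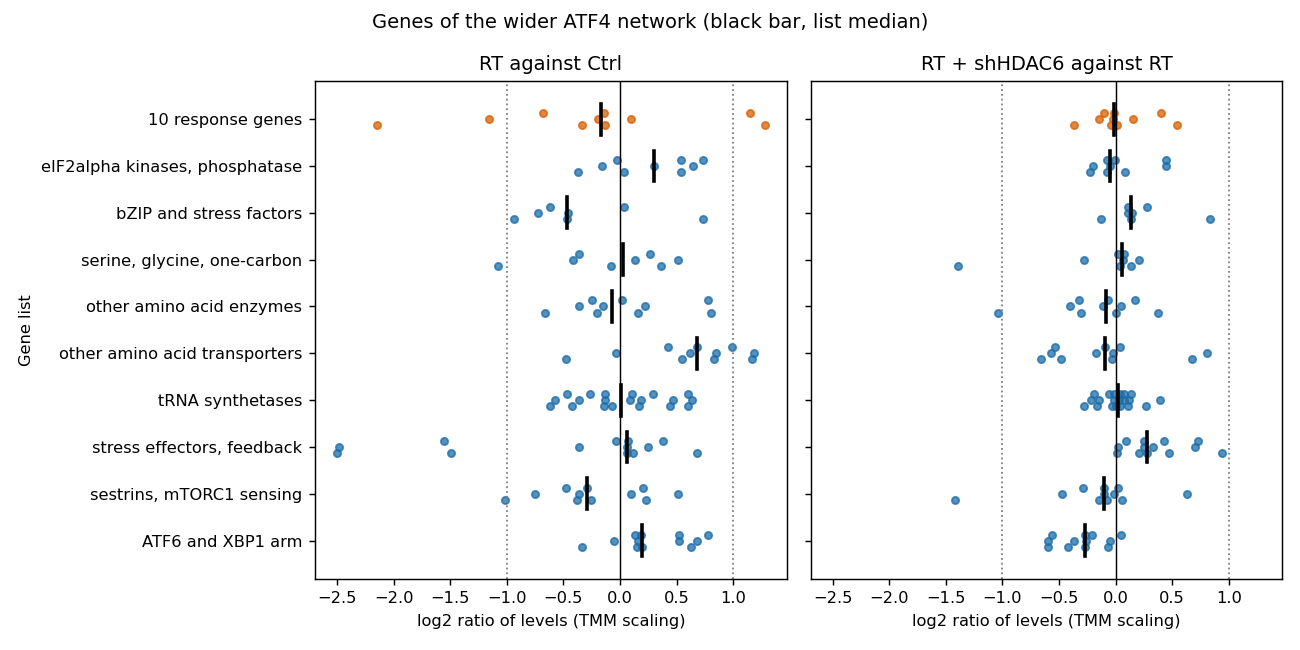
Log2 ratio, with TMM scaling, of every tested gene of the 10 response genes (orange) and of the 9 wider lists (blue) in RT against Ctrl (left) and RT + shHDAC6 against RT (right); black bars are list medians and dotted lines mark 2-fold. Other amino acid transporters lie mostly to the right of 0 in RT (median 0.68). In RT + shHDAC6 all 13 stress effectors lie to the right of 0, where ADM2 was tested only through its count in RT + shHDAC6. There 11 of 12 genes of the ATF6 and XBP1 arm lie to the left (9 with library totals alone).

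Genes known as markers of other cell types moved on the same sides as ATF4 and CHAC1. Of 11 markers of leukocytes, endothelium and fibroblasts, 10 were below 0 in RT against Ctrl. In RT + shHDAC6 against RT, which shares the RT library, 9 were above 0. None of the markers was at 0 counts in any library. Their summed levels in Ctrl, RT and RT + shHDAC6 were 223, 153 and 183 scaled CPM for fibroblast markers, 23.1, 14.5 and 19.2 for endothelial markers and 4.15, 3.22 and 3.26 for leukocyte markers. Their part in the results for ATF4, CHAC1 and the stress effectors was not tested, nor was that of the mitochondrial share, which was highest in RT. The RNA came from the T24 line, so counts of these genes do not show that other cell types were present. In bulk RNA, fewer cells expressing a gene and less of its RNA per cell cannot be told apart.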

How the data were processed

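Reads were trimmed (cutadapt), aligned to GRCh38 (STAR) and assigned to GENCODE release 28 genes (featureCounts) by the authors, who deposited whole-number read counts without normalisation. The labels name a stranded mRNA kit and the paper another strand-specific kit, and the strand setting of the counting is not given in the sources used here. Of 58381 gene identifiers, 57754 matched GENCODE release 44, which gave symbols, positions and exon lengths, and 34314 had a count. In the files, 3 counts, taken as the limit for a gene at 0, equal 0.0718 to 0.0847 CPM.

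TMM factors were computed over the 3 libraries with edgeR 4.0.16 (R 4.3.3), and DESeq2 1.42.0 gave alternative size factors. With 1 library per condition neither tool can estimate the spread between replicates, so their tests were not run. A gene was tested with at least 10 counts in either library and called at 2-fold, with counts of 0 set to 0.5. Clopper-Pearson intervals came from scipy 1.17.1. Ratios of 2 genes between libraries have exact conditional intervals. The NOISeq procedure was re-implemented in Python 3.11.15 with 5 simulated samples per library at 20% of its depth. The calls were tested on simulated data. Alternatives covered scaling, fold, count filter, zeros and the NOISeq rule.

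The members and the 9 lists were chosen with earlier results of these data known. Named genes were all members, HDAC6 and, from each list, the highest and lowest ratio among genes with at least 100 counts and every gene called at that depth. EIF2AK2, EIF2AK4, SLC7A11 in RT against Ctrl, ATF5 beyond its rank, ADM2, SESN3 in RT + shHDAC6 against RT, CASTOR1, GATA3 and CDH2 were added after their values were seen. Some results that the rule covers are not reported here. Promoter sequences are from RefSeq (GRCh38.p14).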

Additional observations from a re-analysis of the deposited data

How the results depend on the processing

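The results rest on 1 library per condition, so how much repeated cultures would differ is unknown, and weakly counted genes such as ASNS and DDIT3 carry wide counting intervals. With library totals only, 1 member in place of 2 was called higher in RT against Ctrl, and the median of the 10 genes was -0.39 in RT against Ctrl, -0.43 in RT + shHDAC6 against Ctrl and, with its sign turned, 0.069 in RT + shHDAC6 against RT, where upper quartile factors gave 0.013. The sign of SESN2 turned with library totals (-0.12 in RT against Ctrl, 0.065 in RT + shHDAC6 against RT, -0.060 in RT + shHDAC6 against Ctrl), as did those of PSAT1 (0.043) and SLC3A2 (0.073) in RT + shHDAC6 against RT, and upper quartile factors turned SESN2 (0.0085) and SLC3A2 (0.017) there. The intervals of these gene ratios with TMM scaling included 0. With DESeq2 size factors and with zeros set to 1 none of the 30 ratios of the members turned.

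With the NOISeq probability over 0.4, 5 members were lower in RT and 5 in RT + shHDAC6 against Ctrl, and 3 were higher and 1 lower in RT + shHDAC6 against RT. Over 0.8, 1 member was lower in each comparison with Ctrl. Over all alternatives the count of all genes called ranged, for higher and lower, from 523 to 6634 and 158 to 7303 in RT (main 975 and 1858), from 92 to 4090 and 234 to 5179 in RT + shHDAC6 against RT (main 828 and 909), and from 452 to 6571 and 436 to 7157 in RT + shHDAC6 against Ctrl (main 1001 and 2134). The cause of these differences was not tested.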
